A study of Mus musculus with 8 samples.

Results

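Immediate early genes are switched on within minutes of a signal without new protein synthesis, and 10 of them were followed here by their H3K27ac peaks. They are *Egr1*, *Egr2* and *Egr3* (EGR zinc finger factors), *Fos*, *Fosb*, *Jun* and *Junb* (AP-1 subunits), and *Nr4a1*, *Nr4a2* and *Nr4a3* (orphan nuclear receptors). They were taken by name, as genes that answer PMA and ionomycin, and the rule for membership uses no measured value, although earlier results of these data were known when the group was chosen. They are 10 of the 21141 protein-coding genes that could be given a start on the GRCm38 build. For each gene, peaks were collected over the gene body plus 20 kb on either side, and a peak within 1 kb of a start was called a start peak.

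The study deleted IkE120, an enhancer upstream of *Ikzf1*, the gene of the lymphoid factor Ikaros, with CRISPR/Cas9 in P5424, a mouse cell line that resembles T cell precursors. H3K27ac ChIP-seq was performed on wild-type (wt) cells and on ΔIkE120 cells, a clone with a homozygous deletion, with 1 library for each genotype. There were thus no replicates, and no test of the difference between genotypes is possible. Whether the cells of the ChIP were stimulated is not stated in the sources used here. The wt list held 34553 peaks over 25189952 bases, and the ΔIkE120 list 29902 peaks over 22143580 bases, a ratio of 0.879. Read depth is unknown, and its part in the length of the lists cannot be told apart from that of the genotype. A counterpart in the other list was found for 74.4% of wt peaks and for 86.4% of ΔIkE120 peaks.

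H3K27ac, acetylation of lysine 27 on histone H3, marks active promoters and enhancers. In T cell precursors, signals from the pre-T cell receptor and the T cell receptor reach immediate early genes through the ERK pathway and through calcium. PMA activates protein kinase C and ionomycin raises calcium, so that together they bypass the receptor. Serum response factor with its ETS partners, CREB and MEF2 factors, which are present before the signal, are well known regulators of these promoters.

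The label of the cells was checked on marker genes. All 12 T lineage precursor markers, including *Cd3e*, *Ptcra*, *Tcf7*, *Bcl11b* and *Rag1*, had a start peak in both lists. Start peaks were found in both lists for 1 of 6 B lineage markers, *Ebf1*, with −log10 q at 2.74 in wt and 2.28 in ΔIkE120. The embryonic stem cell marker *Pou5f1*, 1 of 4, had weak start peaks of 2.01 and 2.68. Of 5 myeloid markers with a start, *Mpo* had a start peak of 2.08 in wt alone, and none of 6 fibroblast and epithelial markers had any.

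In both genotypes, the same 5 of the 10 immediate early genes had a start peak. These were *Egr1*, *Egr2*, *Fosb*, *Jun* and *Junb*, while *Egr3*, *Fos* and all 3 *Nr4a* genes had none. The share of 50% (exact 95% binomial interval 18.7% to 81.3%, counting error only) stands beside 46.7% of all genes in wt, 46.2% in ΔIkE120 and 45.7% in both lists. The share of the 10 genes is near that of genes at large. Gene windows can overlap and share peaks, so genes are not independent of each other.

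Around the 10 genes lay 35 wt peaks that covered 26058 bases and 28 ΔIkE120 peaks that covered 20543 bases, a ratio of 0.788. Summed over the windows of all genes, this ratio was 0.909. The median gene of the group had 1915.5 covered bases in wt and 1791 in ΔIkE120. Covered bases were compared for 13635 genes with at least 500 covered bases in 1 of the lists or both, and the median ratio of ΔIkE120 to wt was 0.934 (quartiles 0.814 and 1.04). Among the 10 genes, the median ratio was 0.924. Past 1.5 fold, 3 of 10 genes were lower in ΔIkE120, namely *Fos*, *Nr4a1* and *Nr4a2*, which is 30% (interval 6.67% to 65.2%) beside 10.3% of all compared genes. None of the 10 was higher past this fold (interval 0% to 30.8%) beside 2.05% of all compared genes. Both intervals include the share of all genes at this fold. At a fold of 2 the same 3 genes were lower and none higher, beside 4.55% and 0.660% of all compared genes, and the former share lies below the interval. Other settings lost some of the 3 at 1.5 fold. *Fos* was not among them with flanks of 10 kb, nor *Nr4a2* with only peaks at or above their list's median −log10 q. With a minimum of 2000 covered bases, *Nr4a1* was the only gene lower. The intervals treat the 10 genes as independent draws, which genes named for a shared response are not. Among the marker genes, 0 of 12 T lineage markers were lower past 1.5 fold in ΔIkE120. Markers of other lineages were lower for 1 of 4 compared B lineage genes (*Ebf1*, 988 bases in wt and 602 in ΔIkE120) and 1 of 2 myeloid genes (*Mpo*, 1166 and 0). So was the 1 compared fibroblast and epithelial gene (*Pdgfra*, 779 and 0), but not the 1 embryonic stem cell gene. Whether this bears on the 10 genes was not tested. A ΔIkE120 peak overlapped 24 of the 35 wt peaks (68.6%, interval 50.7% to 83.1%), and a wt peak overlapped 26 of the 28 ΔIkE120 peaks (92.9%, interval 76.5% to 99.1%). The shares over the whole lists lie within these intervals, which treat peaks as independent draws although several peaks share a window.

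**Figure D1:**
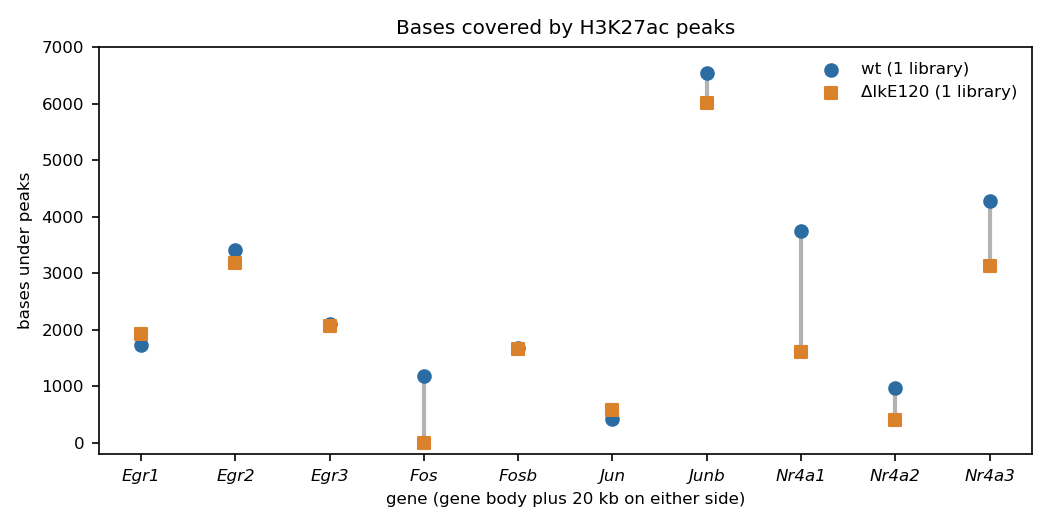
Bases under H3K27ac peaks (vertical axis) in the gene body plus 20 kb on either side of each of the 10 genes, as blue circles for wt and orange squares for ΔIkE120, with 1 library each and a grey line joining both values. *Fos*, *Nr4a1* and *Nr4a2* are the genes lower past 1.5 fold in ΔIkE120, and *Egr1* and *Jun* are the genes with more covered bases in ΔIkE120 than in wt.

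The EGR genes encode zinc finger factors that bind GC-rich sites and are induced when thymocytes receive receptor signals. *Egr1*, which is a classic target of the ERK pathway, had 2 wt peaks and 3 ΔIkE120 peaks. They covered 1722 bases in wt and 1926 in ΔIkE120 (ratio 1.12). This gene was the only one of the group to pass 1.5 fold upwards when peaks within 1 kb of each other were joined, beside 2.59% of all compared genes. The start peak of *Egr1* in wt was 272 bases long with a −log10 q of 4.32. In ΔIkE120 there were 2 short peaks within 1 kb of the start, of which the one overlapping the wt peak was 211 bases long with a −log10 q of 2.12. The other, 273 bases long, was 0.5 kb before the start at a −log10 q of 2.71. Joining these 2 peaks also counted the bases between them. The strongest peak of *Egr1* lay 4.4 kb upstream in both lists. It was 1450 bases long in wt and 1442 in ΔIkE120, and its −log10 q was 6.35 and 4.72, respectively. The upstream peak had the same extent in both genotypes, apart from a few bases at its edges, while the peaks at the start were short in both.

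*Egr2*, which with *Egr3* restrains activated T cells, had the strongest start peak of the group. It ran over chr10:67536636-67538035 in wt and chr10:67536803-67537919 in ΔIkE120, inside the gene body, and covered several of the 5 curated starts of the gene. Its −log10 q was 11.1 in both lists, and its fold enrichment over background was 4.79 in wt and 5.04 in ΔIkE120. The only other peak in the window, stronger in both lists, belonged to the start of the neighbouring gene *Ado*, which encodes a thiol dioxygenase. Its −log10 q was 17.5 for wt and 19.9 for ΔIkE120. Over the window, *Egr2* had 3415 covered bases in wt and 3174 in ΔIkE120 (ratio 0.929).

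*Egr3* had no peak in its body or within 10 kb of its start in either list. Its nearest peak lay 11 kb upstream in wt, at chr14:70065923-70066359, with a −log10 q of 2.65, and the overlapping ΔIkE120 peak reached 3.46. The strongest peak of the window was the start of *Bin3*, a gene of a BAR domain protein, at 10.2 in wt and 8.81 in ΔIkE120. The covered bases were 2109 and 2071 (ratio 0.982). Of the bases around *Egr3*, those outside the *Bin3* peak were 728 in wt and 903 in ΔIkE120. None of the 3 EGR genes was past 1.5 fold in either direction.

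AP-1 is a dimer of a FOS protein with a JUN protein, or of JUN proteins with each other, and drives cytokine genes in T cells. *Fos* was the only gene of the group without a peak in 1 of the lists, with 3 wt peaks over 1188 bases and no ΔIkE120 peak. No ratio is given against 0 bases. The strongest of the 3, at chr12:85455483-85456041, lay 17.8 kb upstream of the start, with a fold enrichment of 5.23 and a −log10 q of 11.7. A weaker peak at chr12:85454820-85455233 had a −log10 q of 3.85, and a short peak at chr12:85485704-85485918, 11.8 kb downstream of the start, had 2.20. All 3 peaks lay outside annotated bodies of protein-coding genes. Neither list had a peak at the start or in the body of *Fos*.

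No ΔIkE120 peak lay near the strongest *Fos* peak, and the nearest was 57.9 kb away. The ΔIkE120 list had no peak over chr12:85394662-85513936, a stretch of 119275 bases around *Fos* that held 4 wt peaks over 1890 bases. Of all 13635 compared genes, 170 (1.25%) had no covered base in ΔIkE120. Among the 11256 genes with as many or more covered wt bases as *Fos*, 22 (0.196%) had none. *Fos* is among these 22 and stands at the lower bound of this set. The share is thus not that of genes with like coverage, which was not computed. With 50 kb on either side of *Fos*, wt peaks covered 2181 bases and ΔIkE120 peaks 218. With 100 kb, wt peaks covered 7099 bases and ΔIkE120 peaks 4803 (ratio 0.677), and with 500 kb the ratio was 0.813. These comparisons around *Fos* were chosen after its values had been seen.

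*Fosb*, whose product can replace FOS in AP-1, had 4 peaks in each list and nearly equal covered bases, 1678 in wt and 1656 in ΔIkE120 (ratio 0.987). Its strongest wt peak lay in the gene body, 1.4 kb downstream of the start, with 442 bases and a −log10 q of 17.4. The ΔIkE120 peak at the same place had 447 bases and 13.6. The strongest ΔIkE120 peak, at 14.1, lay 14 kb downstream of the start, where the wt peak had 11.6. The start peaks of *Fosb* were much weaker. The wt peak of 215 bases had a −log10 q of 1.42, and the ΔIkE120 peak of 288 bases had 2.75. These start peaks did not overlap, since the wt peak was 0.3 kb and the ΔIkE120 peak 0.9 kb from the start. *Fosb* is thus counted with a start peak in both lists, but not with the same peak.

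*Jun*, a main partner of FOS proteins, had the fewest covered bases of the group in wt and 1 peak in each list, upstream of and near the start. The peak was 417 bases long in wt and 572 in ΔIkE120 (ratio 1.37), with a −log10 q of 3.51 and 3.16. *Junb*, an AP-1 subunit with a role in helper T cell differentiation, had the most covered bases of the 10 genes, 6544 in wt and 6006 in ΔIkE120 (ratio 0.918). Its start peak covered most of the short gene in both lists, with a length of 1507 bases and a −log10 q of 7.41 in wt, and 1551 bases and 8.83 in ΔIkE120. It began 61 bases inside the gene in wt and 73 bases inside it in ΔIkE120.

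The *Junb* window is dense with other genes. Of its 8 wt peaks, 4 lay at the starts of *Rnaseh2a*, *Prdx2* and *Hook2*, as did 3 of its 6 ΔIkE120 peaks. The strongest peak of the window was the start of *Prdx2*, a peroxiredoxin gene, at 9.77 in wt and 12.9 in ΔIkE120. Without the peaks at other genes' starts, *Junb* had 4137 covered bases in wt and 3565 in ΔIkE120 (ratio 0.862). *Fosb*, *Jun* and *Junb* were not past 1.5 fold, while *Fos* was.

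**Figure D2:**
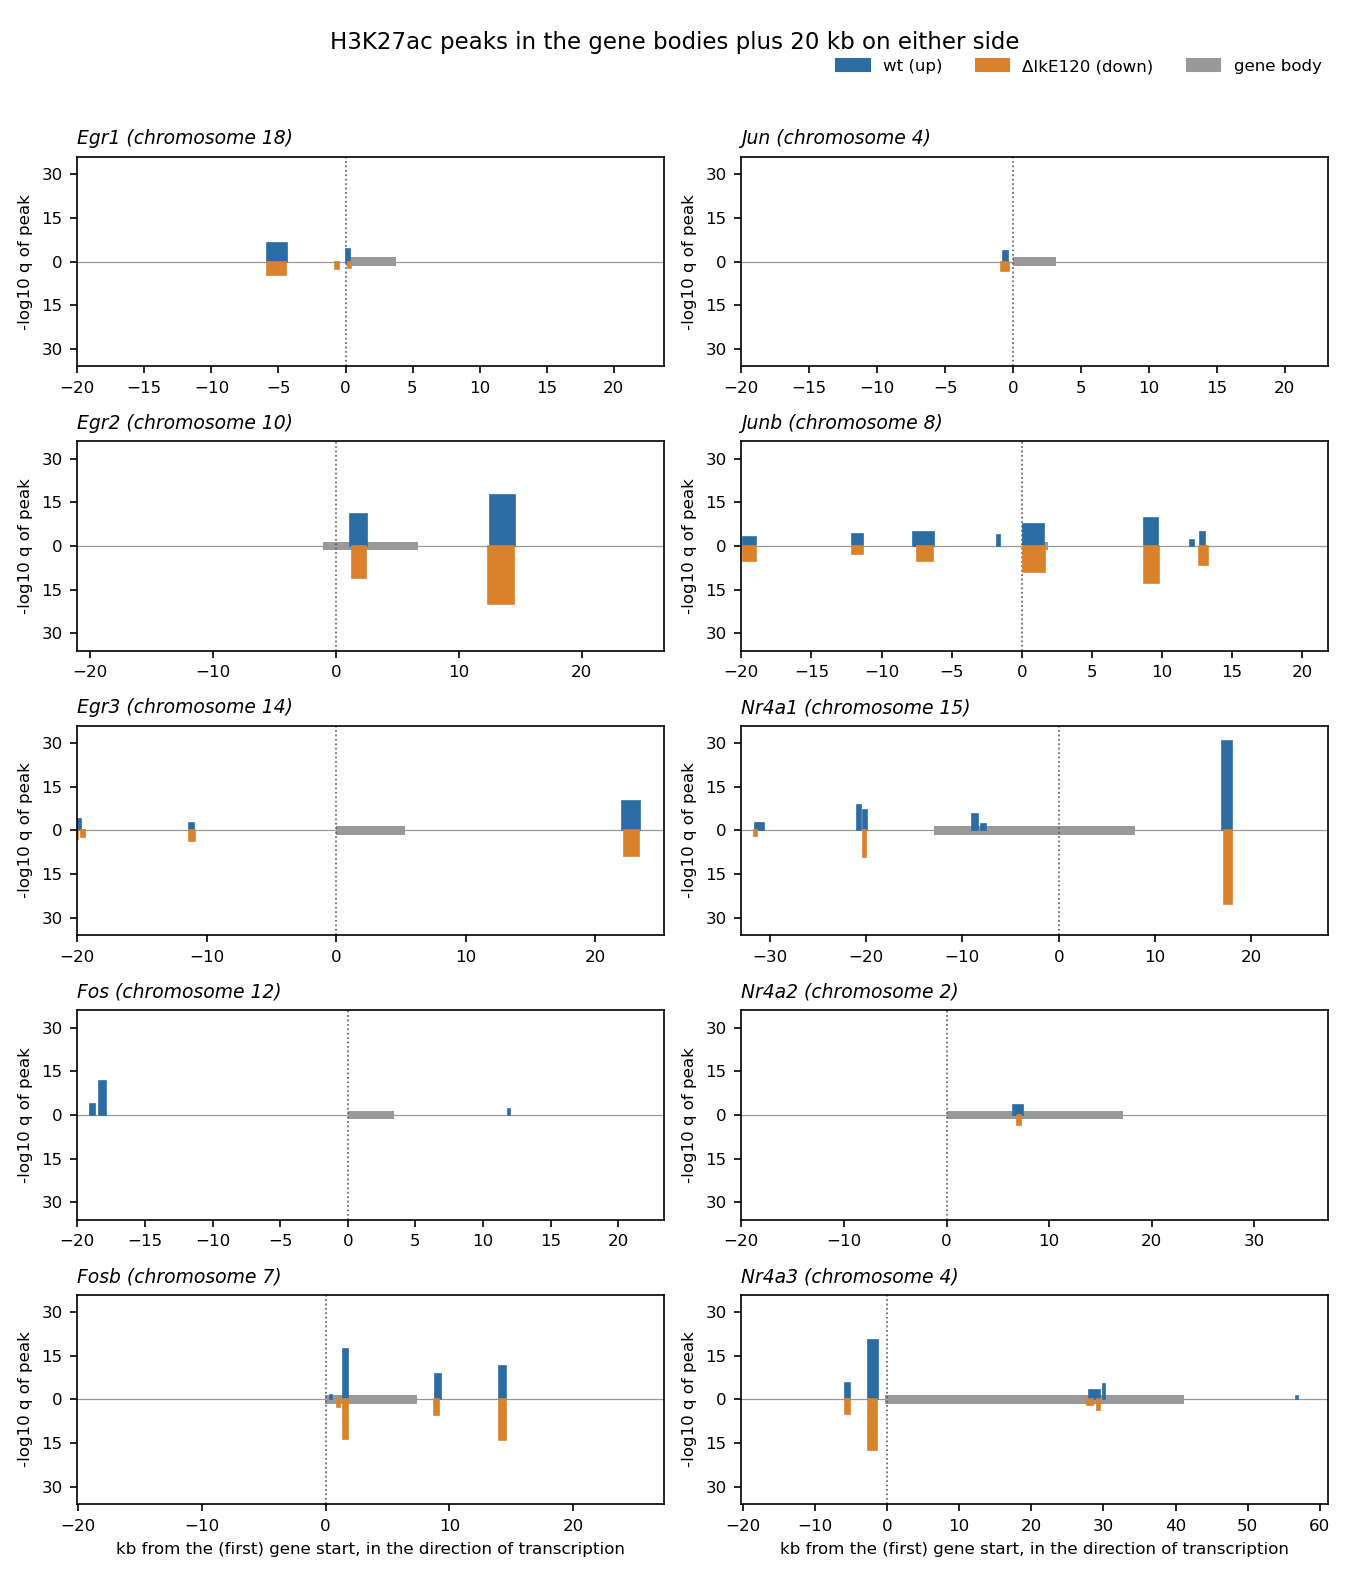
Position of H3K27ac peaks along each gene window (horizontal axis, kb from the first start in the direction of transcription) and their −log10 q (vertical axis), with wt peaks in blue upwards, ΔIkE120 peaks in orange downwards, the gene body in grey and the start as a dotted line. The start is the 5′ end of the gene for *Egr1* and *Egr3*, and a curated start for the others. *Fos* has 3 peaks in wt and none in ΔIkE120, *Nr4a1* has 6 and 3, and the tallest bars of *Nr4a1* and *Egr2* are the starts of *Atg101* and *Ado*.

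The NR4A genes encode orphan nuclear receptors that act without a known natural hormone. All 3 had fewer covered bases in ΔIkE120 than in wt, as did the median compared gene, at a ratio of 0.934. *Nr4a1*, or Nur77, is widely used as a reporter of antigen receptor signals in thymocytes. Its window held 6 wt peaks over 3738 bases and 3 ΔIkE120 peaks over 1597 bases, a ratio of 0.427. The strongest peak, with −log10 q at 30.6 in wt and 25.2 in ΔIkE120, was the start of the autophagy gene *Atg101*. Without it, *Nr4a1* had 2752 covered bases in wt and 695 in ΔIkE120 (ratio 0.253).

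Of the 6 wt peaks of *Nr4a1*, 3 had no ΔIkE120 counterpart. The peak at chr15:101257871-101258427 had a −log10 q of 5.80. It lay 8.4 kb before the curated start, inside a longer gene model, and the nearest ΔIkE120 peak was 11.1 kb away. Beside it, 7.6 kb before the start, was a weaker peak with a −log10 q of 2.36. The third, at chr15:101245934-101246301, was stronger at 8.85, but a ΔIkE120 peak with a −log10 q of 9.18 lay only 185 bases away. The missing bases of *Nr4a1* were thus partly missing peaks and partly shorter ones, as the most distant upstream peak measured 942 bases in wt and 369 in ΔIkE120. *Smim41*, whose start also lies in this window, had no start peak in either list.

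*Nr4a2*, or Nurr1, best known from dopamine neurons, had 1 peak in each list, in the gene body 6.5 kb from the start in wt. It was 965 bases long in wt and 409 in ΔIkE120 (ratio 0.424), and the ΔIkE120 peak lay wholly within the wt peak. Its fold enrichment was 3.51 in wt and 3.65 in ΔIkE120, and its −log10 q was 3.42 and 3.60, below the median of its list in both cases (4.12 and 4.47). The difference for *Nr4a2* is thus one of peak length, not of the number of peaks. The gene *LOC105244150*, which starts 0.7 kb from *Nr4a2*, had no start peak in either list. *Nr4a3*, or NOR1, had 5 wt peaks over 4282 bases and 4 ΔIkE120 peaks over 3132 bases, a ratio of 0.731 that is below the lower quartile of all genes but not past 1.5 fold. Its strongest peak, 1.3 kb upstream of the start and thus outside the start window, was 1305 bases long with a −log10 q of 20.4 in wt, and 1263 bases long with 17.5 in ΔIkE120. Most of the difference lay in the gene body, with 1906 covered bases in wt and 1226 in ΔIkE120.

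The strength of the start peaks of *Egr1*, *Egr2*, *Fosb*, *Jun* and *Junb* was set beside that of all genes with a start peak. Over the 9879 genes with a start peak in wt, the median −log10 q of the strongest was 12.5 (quartiles 8.18 and 17.6), and over the 9765 genes in ΔIkE120 it was 12.8 (8.30 and 18.4). All 5 were below the median in both lists, but *Egr2* lay within the quartiles in both and *Junb* in ΔIkE120, while *Egr1*, *Fosb* and *Jun* were below the lower quartile in both. In wt, 41.6% of genes with a start peak had a weaker one than *Egr2*, 20.9% a weaker one than *Junb*, 7.63% than *Egr1*, 5.07% than *Jun* and 0.162% than *Fosb*. In ΔIkE120 these shares were 39.9% for *Egr2*, 27.8% for *Junb*, 2.60% for *Egr1*, 3.84% for *Jun* and 2.75% for *Fosb*. By length, the genes fell apart. The median longest start peak was 1081 bases in wt and 1065 in ΔIkE120, which *Egr2* and *Junb* exceeded in both lists, while *Egr1*, *Fosb* and *Jun* were at 572 bases or less.

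**Figure D3:**
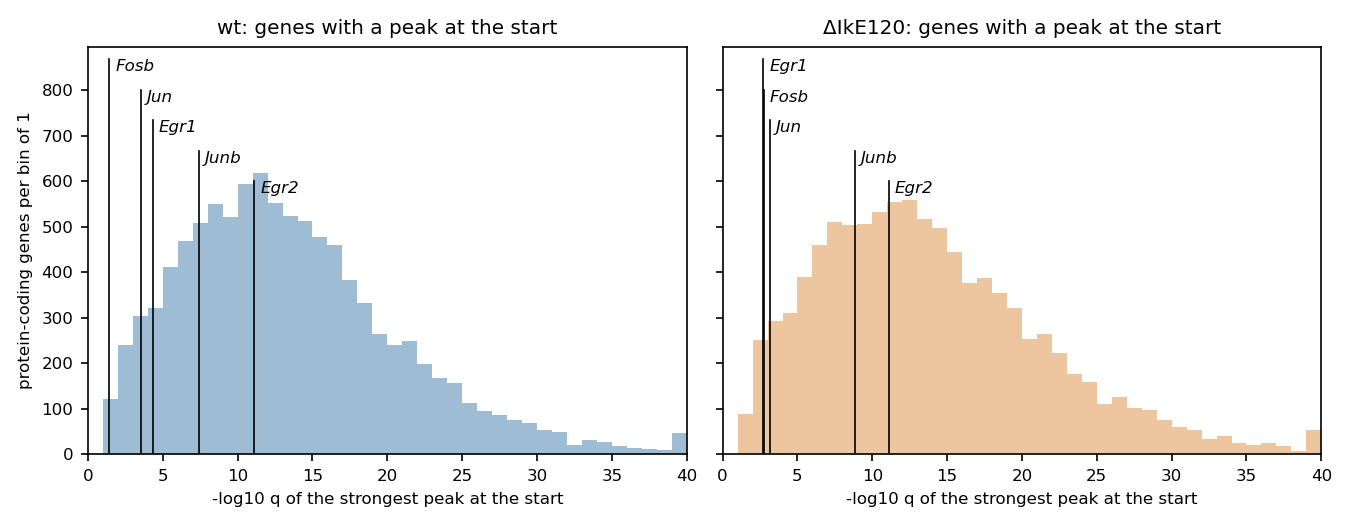
Number of protein-coding genes (vertical axis) by the −log10 q of their strongest start peak (horizontal axis, bins of 1, with higher values in the last bin), for wt on the left and ΔIkE120 on the right, and black lines for the 5 immediate early genes with a start peak. All 5 lines lie below the medians of 12.5 in wt and 12.8 in ΔIkE120.

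Promoter sequences were taken from RefSeq on GRCm38, and 8 of the 10 genes matched the table used, without *Egr1* and *Egr3*. In the 250 bases before each start, letters of known response elements were searched on both strands. Bases further upstream or after the start were not searched, so a gene without a match may hold one there. The serum response element, or CArG box, was found for 1 of 8 genes, *Egr2*, beside 1.62% of 27025 genes. These were all genes of the promoter table, not restricted to protein-coding genes as elsewhere, of which 17492 were in it. Motif shares over protein-coding genes alone were not computed. The full cAMP response element (CRE), TGACGTCA, and the AP-1 element, TGANTCA, were found for 0 of 8, beside 1.77% and 7.82% of genes. The EGR element GCGNGGGCG was found for 3 of 8, *Fosb*, *Nr4a1* and *Nr4a2*, beside 5.33%, and the TATA box TATAAA for 2 of 8, *Fos* and *Nr4a2*, beside 14.3%. The TATAAA match of *Nr4a2* was on the other strand (TTTATA), 164 to 159 bases before the start, and that of *Fos* was 33 to 28 bases before it. The shorter letters TGACG, which are part of every full CRE, were found for 7 of 8 genes, all but *Jun*, beside 19.8%. This shorter search was added after the sequences had been seen. A match is a run of letters, not a bound site.

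GC content over the 250 bases was 80% at *Nr4a2*, 74.4% at *Nr4a1*, 68.8% at *Fosb*, 66.4% at *Junb* and 63.6% at *Nr4a3*, above the upper quartile of 61.2% over 32851 promoters (median 52.4%). *Jun* was at that quartile and *Fos*, at 58.4%, below it, and the 5 starts of *Egr2* ranged from 54% to 71.2%. *Nr4a2* held 44 CpG dinucleotides and *Fos* 15, beside a median of 6 and quartiles of 2 and 16. The 32851 promoters were likewise not restricted to protein-coding genes. The promoters of *Fos* and *Nr4a2* are shown because both genes were lower past 1.5 fold in ΔIkE120 and had no start peak. That of *Junb* is shown because the start peak stopped short of it in both lists. Capitals mark the searched motifs. *Fos* is chr12:85473640-85473889 on the plus strand, and its TATA box begins 33 bases and its nearest TGACG 66 bases before the start. *Nr4a2* is chr2:57124004-57124253 and *Junb* is chr8:84978749-84978998, both on the minus strand, and all 3 are written 5′ to 3′ in the direction of transcription.
Fos: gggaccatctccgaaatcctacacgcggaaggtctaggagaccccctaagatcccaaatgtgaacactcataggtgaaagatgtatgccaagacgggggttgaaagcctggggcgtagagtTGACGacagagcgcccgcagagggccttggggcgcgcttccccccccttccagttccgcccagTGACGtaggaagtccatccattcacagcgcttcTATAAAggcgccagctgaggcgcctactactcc
Nr4a2: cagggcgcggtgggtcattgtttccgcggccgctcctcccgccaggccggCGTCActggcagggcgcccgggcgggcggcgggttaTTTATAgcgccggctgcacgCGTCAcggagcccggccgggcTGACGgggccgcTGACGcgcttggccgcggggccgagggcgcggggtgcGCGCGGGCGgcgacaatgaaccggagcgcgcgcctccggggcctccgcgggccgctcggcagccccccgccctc
Junb: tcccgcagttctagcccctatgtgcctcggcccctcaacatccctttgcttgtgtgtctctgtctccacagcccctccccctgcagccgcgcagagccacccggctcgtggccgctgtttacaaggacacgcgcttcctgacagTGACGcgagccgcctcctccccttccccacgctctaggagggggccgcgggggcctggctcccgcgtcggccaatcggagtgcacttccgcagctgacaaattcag

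For *Egr2* and *Nr4a1*, the bases before a curated start lie inside a longer transcript model, and only a short stretch around the motifs is given. That of *Egr2*, at chr10:67537790-67537819 on the plus strand, holds the CArG box and, behind it, TGACG on the other strand (CGTCA), and lies inside the start peak of both lists. That of *Nr4a1*, at chr15:101266777-101266805 on the plus strand, holds TGACG and the EGR element, both read from the other strand, and lies outside the peaks of both lists.
Egr2: cctcagtCCATATATGGgcagcgaCGTCAc
Nr4a1: CGTCAgtggCGCCCCCGCccctctccatg

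Other genes of the immediate early response were treated in the same way. Of 27 such genes, 18 had a start peak in wt and 19 in ΔIkE120, beside 46.7% and 46.2% of all genes, and *Ier2* was the gene with a start peak in ΔIkE120 alone, at a −log10 q of 4.40. No start peak was found for the AP-1 family genes *Fosl1*, *Jund*, *Batf* and *Atf3*, nor for *Egr4*, *Klf2*, *Klf4* and *Zfp36*. Of 23 genes with enough covered bases, 2 were lower past 1.5 fold in ΔIkE120 and 0 higher, beside 10.3% and 2.05% of all compared genes. The median ratio was 0.921. *Klf2*, a factor of T cell quiescence and migration, had 526 covered bases in wt and 0 in ΔIkE120. *Nfkbia*, the inhibitor of NF-κB, had 1938 and 1000, and a start peak with −log10 q at 15.4 in wt and 14.6 in ΔIkE120. The phosphatase genes *Dusp1*, *Dusp2*, *Dusp4*, *Dusp5* and *Dusp6*, which dampen MAP kinase signals, all had a start peak in both lists.

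A further list held genes of factors and kinases that act upstream of the immediate early genes. Of 11 such genes, 10 had a start peak in both lists, beside 45.7% of all genes, and *Mef2c* was the exception with no covered base. None of the 10 was past 1.5 fold, beside 10.3% of all compared genes lower and 2.05% higher, and their median ratio was 0.891. *Srf*, the gene of serum response factor, had a −log10 q at its start of 18.2 in wt and 22.5 in ΔIkE120, and *Creb1* had 13.7 and 15.4. Of the EGR corepressor genes, *Nab1* had a start peak in both lists and *Nab2* in neither.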

How the data were processed

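H3K27ac ChIP-seq of wt and ΔIkE120 P5424 cells was used, with 1 library each. The submitters' processing notes name Bowtie2 2.3.4.3, MACS2 2.1.1, deepTools 3.2.1 and GRCm38, and an input is named in the protocol; the caller settings are not given in the sources used here. The authors deposited 1 broad peak list per library with 9 columns. The score deposited for a peak ranks peaks like their −log10 q. The deposited fold enrichment is a ratio of signal over background, and the deposited −log10 p-values and −log10 q-values are those of the caller. Signal height was not analysed here. Caller values are printed for both lists, but depend on a depth that is unknown, so peaks were ranked within a list only.

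Genes came from RefSeq on GRCm38. Starts were those of curated transcripts, where given, and otherwise the 5′ end of the gene, with strands from GENCODE M1. No start could be assigned to 746 of 21887 protein-coding genes, such as *Spi1*, which were left out. Exons were not used. A peak was counted with an overlap of 1 base. Genes with at least 500 covered bases in 1 list were called past a fold of 1.5. Exact (Clopper-Pearson) intervals are at 95%.

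Named were the 10 genes, other genes whose start lies in a window, the start peak and the strongest peak of each window, and other pathway genes past 1.5 fold or with a start peak in 1 list. Further peaks and genes were named after their values had been seen. The gene lists, like the members, were chosen with earlier results of these data known. The 4C libraries were not used, since none of the 10 genes lies on chromosome 11. Counting was tested on 40 simulated lists with 2000 windows and gave 0 differences from an exhaustive count. Scripts ran in Python 3.11.15 (numpy 2.4.6; pandas 2.3.3; scipy 1.17.1) and plots were drawn in matplotlib 3.10.9.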

Additional observations from a re-analysis of the deposited data

How the results depend on the processing

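Of 48 values under alternative settings, 42 were within 1.5 times the reported value or, for shares, within its interval. This range is wide, as a ratio of 0.788 could move to equal coverage and stay within it. A minimum of 1 base could change no count, since every gene of the group was already compared. The tally therefore does not show how firm a result is. When peaks below their list's median −log10 q were left out (peaks at or above the median), start peaks were left for 3 genes in wt (*Egr1*, *Egr2*, *Junb*) and 2 in ΔIkE120 (*Egr2*, *Junb*), and 20 wt and 16 ΔIkE120 peaks remained. With peaks joined within 1 kb, 1 gene, *Egr1*, was higher past 1.5 fold in ΔIkE120, beside 2.59% of all compared genes. With a minimum of 2000 bases, 1 gene, *Nr4a1*, was lower, since *Fos* and *Nr4a2* were no longer compared. The share of all compared genes lower past the fold ran from 4.55% (fold of 2) to 13.1% (peaks at or above the median) where it was recomputed. *Nr4a1* was lower past the fold under every setting run, *Fos* under all but this one and flanks of 10 kb, and *Nr4a2* under all but this one and the peaks at or above the median. *Fosb* had no ΔIkE120 start peak with a start window of 500 bases, and no wt start peak when the same number of peaks was taken from each list. A window of 2 kb added *Nr4a3* in both lists. The outermost start, an alternative chosen after seeing the data, left out *Egr2* in both lists. Leaving out peaks at other genes' starts, also chosen after seeing the data, gave a ratio of covered bases of 0.725. Under the planned settings this ratio ran from 0.775 (peaks joined within 1 kb) to 0.884 (peaks at or above the median). Summed over all genes, it ran from 0.9035 (flanks of 50 kb) to 0.955 (the same number of peaks) where it was recomputed. With 1 library a genotype, unknown depth and a threshold set by the caller, a missing peak does not show that the mark is absent, and no difference between genotypes can be set against the spread between cultures. No paired analysis was possible because each genotype had 1 library.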
